A study of Homo sapiens with 2 samples.

Results

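ENC 2′ is the largest of the 4 enteric neural crest subclusters in day 15 crestospheres. Its members are the cells that the deposited cell table types as enteric neural crest (ENC) and gives the subtype ENC 2′. They make up 48.4% of the 4907 subclustered cells (exact Clopper-Pearson 95% interval 47.0 to 49.9). The day 15 library holds 6320 cell barcodes, of which 5336 carry a cell type, and the series holds 15947. ENC 1′ has 1665 cells, ENC 3′ has 727 and ENC 4′ has 138, and these 2530 cells together are called the rest below.

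All cells derive from the human embryonic stem cell line H9, carried through an enteric neural crest induction with no special treatment. BMP4, the TGF-β receptor inhibitor SB431542 and the GSK3 inhibitor CHIR 99021 act first, SB431542 and CHIR 99021 continue, and retinoic acid joins from day 6 on. The day 10 library comes from adherent cells on Geltrex. The day 15 library comes from cells lifted on day 12 and grown in suspension in ultra-low-attachment plates, in a neurobasal medium with FGF2 and CHIR 99021, as free-floating spheres. Per the series' design text each library pooled 2 biological repeats, and the deposited table does not assign cells to them. A difference between subclusters therefore has no replicate check here. No test was made, and the intervals reflect counting error alone. The authors defined the subclusters from the expression of these same cells, so each value below describes the subcluster and tests nothing about it.

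Neural crest cells leave the dorsal neural tube and give rise to peripheral neurons, glia, pigment cells and, in the head, skeletal tissue. The enteric nervous system forms mainly from vagal crest cells that enter the gut. SOX10, a transcription factor, and ERBB3, a receptor for neuregulin, are kept in migrating crest and in its glial derivatives. Pigment cell precursors of the same crest switch on MITF and then the melanosome genes PMEL, MLANA and DCT. Low oxygen is known to raise glucose transporters, glycolytic enzymes and angiogenic factors through the hypoxia-inducible factors.

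ENC 2′ held 26838034 UMIs (unique molecular identifiers, which count captured RNA molecules). Its cells had a median of 11101 UMIs and 2556 detected genes, against 11193 and 2507 in ENC 1′, 10953 and 2423 in ENC 3′ and 10290 and 2113.5 in ENC 4′. The median share of mitochondrial UMIs was 2.86% in ENC 2′ and 2.57%, 2.64% and 1.93% in the others, in the same order. Only 33 of its barcodes, 1.39%, also occur in the day 10 library. The shallowest subclustered cell had 5966 UMIs, so thinning every cell to 5000 UMIs left out none of them. Levels are CPM, the UMIs of a gene scaled to a subcluster total of 1000000 UMIs, and ratios are log2 of CPM + 1, which understates differences of low genes.

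The crest markers fitted the label of ENC 2′. SOX10 (chr22:37970686-37987422, minus strand, GENCODE 29 on GRCh38) stood at 116 CPM (exact Poisson 95% interval 112 to 120) in ENC 2′, 94.5 in ENC 1′, 90.8 in ENC 3′ and 52.8 (41.8 to 65.7) in ENC 4′. The ENC 2′ level was above the other 3, with intervals that did not overlap, and its log2 ratio over the rest was 0.35. At 5000 UMIs a SOX10 UMI was found in 42.5% of ENC 2′ cells, against 2.88% of neuro-epithelial progenitor (NEP) cells of the same library. ERBB3 (chr12:56076799-56103505, plus strand) stood at 116 CPM (112 to 120) in ENC 2′, 104 in ENC 1′, 89.6 in ENC 3′ and 72.6 in ENC 4′. It was found in 44.8% of ENC 2′ cells and in 2.88% of NEP cells, and its log2 ratio over the rest was 0.24. Both ratios were under 1.5-fold. The ERBB3 model overlaps AC034102.2 on the same strand, so their reads could be split in counting where the overlap is read. A same-strand overlap somewhere in the gene was also found for 21 of the 67 genes named by rank, SLC2A1, ENO2, PFKFB4, LDHA and PMEL among them.

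Over the 9 neural crest markers the summed level was 530 CPM in ENC 2′, with 0 markers at 0, and between 527 and 607 CPM in the other subclusters. Markers of NEP, cranial placode, non-neural ectoderm and neurons were scarce in ENC 2′, while the mesenchymal and pluripotency lists were not. The 8 NEP markers summed to 8.05 CPM, with 1 of them at 0 and 0 at 5 CPM or more. The 9 cranial placode markers summed to 13.3 CPM and the 8 non-neural ectoderm markers to 11.4 CPM, again with 0 at 5 CPM or more. The 8 neuron markers summed to 27.1 CPM in ENC 2′, against 2431 CPM in the placode cluster CP1. The 9 mesenchymal markers summed to 131 CPM in ENC 2′ and to 164, 198 and 152 CPM in ENC 1′, 3′ and 4′. Of them only COL1A2, a fibrillar collagen chain, passed 5 CPM in ENC 2′, at 126 CPM. The pluripotency markers summed to 266 CPM in ENC 2′, of which LIN28A gave 155 CPM and DPPA4 gave 71.1 CPM. Their sums were similar in the other subclusters, at 272, 232 and 274 CPM in the same order.

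**Figure D1:**
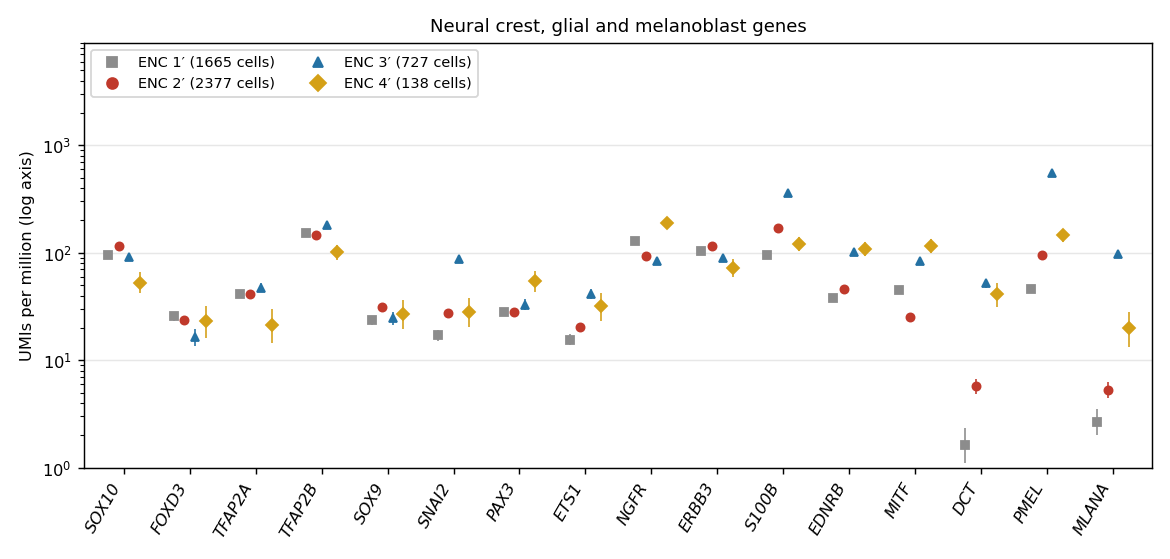
Levels of crest, glial and melanoblast genes in the 4 subclusters, in CPM on a log axis. Points are subcluster sums and bars are exact Poisson 95% intervals. ENC 2′ lies close to ENC 1′ for most crest genes, while ENC 3′ stands above it for SNAI2, S100B, DCT, PMEL and MLANA.

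Against the rest, few genes stood apart in ENC 2′. Of 4134 genes with a mean of at least 20 CPM over both classes, 29 were higher by 1.5-fold or more (0.701%) and 114 were lower (2.76%). The median log2 ratio over all of them was 0.09, and 2712 (65.6%) had a ratio above 0. The excess of lower over higher genes did not hold under every weighting or in every phase. With equal weight for the 3 other subclusters 290 genes were higher and 187 lower, and among G1 cells 360 were higher and 178 lower. The lowest genes included several of glucose uptake, glycolysis and the response to low oxygen, which 1 of the gene lists covers.

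The 15 lowest ratios belonged to ANKRD37, SLC2A1, ENO2, SLC2A3, PFKFB4, PDE4C, STC1, STC2, RRAGD, ANGPTL4, SLC16A3, INSIG2, CDKN1C, ERO1A and FAM162A, with log2 ratios from -2.04 to -1.38. All 15 were lower in ENC 2′ than in each of the other 3 subclusters. Of the 15, 11 were under 20 CPM in ENC 2′ and passed the filter through the rest, so a low ratio was built into their entry.

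ANKRD37, an ankyrin repeat protein known as a hypoxia-inducible factor target, stood at 11.4 CPM (10.1 to 12.7) in ENC 2′, 54.6 in ENC 1′, 24.9 in ENC 3′ and 123 in ENC 4′. SLC2A1, the glucose transporter GLUT1, stood at 36.7 CPM (34.4 to 39.1) in ENC 2′, 136 in ENC 1′, 73.2 in ENC 3′ and 338 in ENC 4′. For both genes ENC 2′ was the lowest, ENC 3′ came next and ENC 4′ was the highest, with no overlap of the intervals. SLC2A1 was 3.51-fold lower in ENC 2′ than in the rest (ratio 0.285, interval 0.265 to 0.305), and at 5000 UMIs it was seen in 14.3% of ENC 2′ cells, 39.5% of ENC 1′, 22.7% of ENC 3′ and 74.6% of ENC 4′.

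SLC2A3, the transporter GLUT3, gave 12.7 CPM in ENC 2′ and 44.0, 25.6 and 173 CPM in ENC 1′, 3′ and 4′. ENO2, the neuron-type enolase, gave 11.6 CPM in ENC 2′ and 47.9, 23.8 and 65.3 CPM in the same order. PFKFB4, which sets the level of a glycolysis activator, gave 12.2 CPM and 46.3, 21.1 and 52.1 CPM. The order of the subclusters was shared by these genes. FAM162A, a mitochondrial protein induced by hypoxia, gave 5006 UMIs or 187 CPM in ENC 2′ and 571, 272 and 569 CPM in the others. It was 2.60-fold lower in ENC 2′ than in the rest (ratio 0.384, interval 0.372 to 0.397).

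ACGTG is 1 form of the core that the hypoxia-inducible factors bind. Only this form was counted, so a window with 0 matches can still hold another form. The 250 bases before the RefSeq start are shown for 3 of the lowest genes that hold ACGTG, FAM162A, ANGPTL4 and INSIG2. HSPH1, 1 of the highest genes, is shown as a window without it. The windows shown are examples and do not stand for either set. These windows lie almost wholly outside annotated exons. The ANGPTL4 window lies inside the GENCODE 29 gene model, which also holds transcripts from an earlier start at chr19:8363289. Sequences are the RefSeq promoters of GRCh38.p14, written 5′ to 3′ on the gene's own strand. Capitals mark ACGTG on either strand, CACGT being its reverse complement. The windows lie at chr3:122383932-122384181 (plus strand) for FAM162A, chr19:8363905-8364154 (plus) for ANGPTL4, chr2:118088221-118088470 (plus) for INSIG2 and chr13:31162389-31162638 (minus) for HSPH1.
FAM162A: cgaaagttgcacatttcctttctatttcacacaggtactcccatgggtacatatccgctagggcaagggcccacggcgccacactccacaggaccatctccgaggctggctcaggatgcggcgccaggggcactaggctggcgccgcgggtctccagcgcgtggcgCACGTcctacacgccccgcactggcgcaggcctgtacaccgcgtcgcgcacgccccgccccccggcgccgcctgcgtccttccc
ANGPTL4: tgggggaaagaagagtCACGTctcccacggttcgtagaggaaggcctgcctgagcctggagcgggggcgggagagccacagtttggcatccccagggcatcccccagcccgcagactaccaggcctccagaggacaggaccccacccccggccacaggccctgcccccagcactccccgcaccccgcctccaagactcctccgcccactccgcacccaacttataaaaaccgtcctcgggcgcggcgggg
INSIG2: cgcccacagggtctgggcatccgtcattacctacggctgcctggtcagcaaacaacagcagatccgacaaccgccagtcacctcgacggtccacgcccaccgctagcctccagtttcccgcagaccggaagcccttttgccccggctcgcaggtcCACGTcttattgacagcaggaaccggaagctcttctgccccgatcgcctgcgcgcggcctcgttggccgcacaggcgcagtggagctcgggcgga
HSPH1: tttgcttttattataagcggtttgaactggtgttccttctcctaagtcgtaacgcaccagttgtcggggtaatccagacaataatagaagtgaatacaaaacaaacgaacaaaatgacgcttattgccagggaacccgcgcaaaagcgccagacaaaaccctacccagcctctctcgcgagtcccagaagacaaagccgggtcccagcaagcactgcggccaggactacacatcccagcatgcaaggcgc
FAM162A, ANGPTL4 and INSIG2 hold 1 match each and HSPH1 holds 0. Of the 15 lowest genes 11 matched the promoter table, and 6 of these 11 held ACGTG, the others being ANKRD37 with 3 matches, of which a pair overlap, and ENO2 and ERO1A with 1 each. SLC2A1, with the second lowest ratio, held 0 in this window, as did PFKFB4, PDE4C, STC2 and SLC16A3. Over all 90 matched genes that were lower by 1.5-fold or more, 36 held it (40.0%). The share was 26.8% over the matched genes of the comparison and 18.7% over all 27305 promoters. Over all 21 matched genes that were higher by 1.5-fold or more, 4 held it (19%), and of the 15 highest genes 10 matched and 0 held it. A match describes these letters only.

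The glycolysis and hypoxia list, chosen with earlier results known, held 22 genes, of which 15 were tested against the rest. Of these, 11 were lower in ENC 2′ by 1.5-fold or more, 0 were higher, and 0 had a ratio above 0, against 65.6% of all genes tested. Their median log2 ratio was -0.67, against 0.09 over all genes tested. SLC2A3 and HK2, a hexokinase, were under 20 CPM in ENC 2′ and passed the filter through the rest. A low ratio was thus built into the entry of these members. The list summed to 13505 CPM in ENC 2′, 22808 in ENC 1′, 15528 in ENC 3′ and 21374 in ENC 4′. GAPDH, a central glycolytic enzyme, gave 6316 CPM of the ENC 2′ sum and 10846, 7264 and 9909 CPM of the others. Other enzymes followed the same order between ENC 2′ and ENC 1′, with PGK1 at 610 and 1167 CPM, ENO1 at 1774 and 3010 CPM and LDHA at 1196 and 2024 CPM. P4HA1, a collagen prolyl hydroxylase subunit, gave 81.1 CPM in ENC 2′ and 216 in ENC 1′, and PDK1, which holds pyruvate back from the mitochondria, gave 44.7 and 92.2 CPM. VEGFA, the angiogenic factor, was under the filter at 9.80 CPM in ENC 2′ and 23.6 in the rest.

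Single cells spread widely within ENC 2′. At 5000 UMIs per cell the list gave a median of 60 UMIs in ENC 2′ cells, with 10th and 90th percentiles of 35 and 115. The medians were 111 in ENC 1′, 70 in ENC 3′ and 108.5 in ENC 4′. Of ENC 2′ cells 11.4% (10.2 to 12.8) reached the median of ENC 1′, and 22% of ENC 3′ cells did. The ENC 2′ distribution was thus shifted down with overlap, and it lay nearest to that of ENC 3′.

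**Figure D2:**
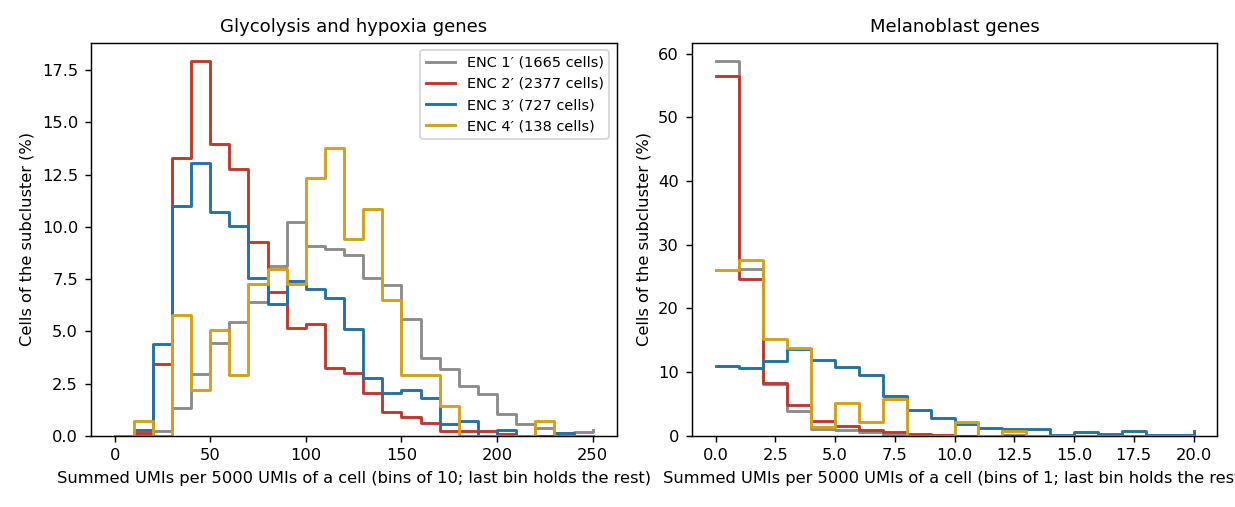
Distribution over cells of the summed UMIs of the glycolysis and hypoxia list (left) and the melanoblast list (right), after thinning each cell to 5000 UMIs. Lines give the percent of each subcluster's cells per bin. ENC 2′ peaks between 40 and 50 UMIs on the left, below ENC 1′ and ENC 4′, and lies beside ENC 1′ on the right, where 56.5% of its cells have 0.

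The same direction was seen against each subcluster, with unequal size. Against ENC 1′, 40 of 4153 genes were higher by 1.5-fold or more (0.963%) and 140 were lower (3.37%), and of 16 tested glycolysis and hypoxia genes 12 were lower (median log2 ratio -0.82, all genes 0.07). Against ENC 3′, 105 of 4102 genes were higher (2.56%) and 90 were lower (2.19%), and of 13 tested genes of the list 1 was lower, SLC2A1 (median -0.23, all genes 0.10). Against ENC 4′, 1111 of 3966 genes were higher (28.0%) and 474 were lower (12.0%), and of 18 tested genes of the list 13 were lower (median -0.91, all genes 0.21). List members under 20 CPM in ENC 2′ entered the comparisons with ENC 1′ and ENC 4′ through those classes. SLC2A3, at 12.7 CPM in ENC 2′, did so in both, and ADM, at 5.63 CPM against 89.7 in ENC 4′, in the latter. A low ratio was built into such entries. The counts against ENC 4′ rest on 1516022 UMIs of 138 cells, where 3 UMIs equal 1.98 CPM, so low genes carry a wide counting error there.

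Further genes low in ENC 2′ lay outside glycolysis. IGFBP2, a secreted binder of insulin-like growth factors, stood at 730 CPM in ENC 2′, 1588 in ENC 1′, 832 in ENC 3′ and 1434 in ENC 4′. DDIT4, a stress-induced inhibitor of mTORC1, gave 240 CPM in ENC 2′ against 545, 380 and 1376 CPM. CXCR4, a chemokine receptor of migrating cells, gave 32.6 CPM in ENC 2′ and 31.7 in ENC 3′, with intervals that overlapped, against 71.5 in ENC 1′ and 119 in ENC 4′. CDKN1C, a cell cycle inhibitor, gave 11.8 CPM in ENC 2′ against 35.0, 21.5 and 75.9 CPM.

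Taking the lowest of the other 3 as the reference, 18 of 3717 genes were lower in ENC 2′ by 1.5-fold or more (0.484%). Among the 10 lowest on this measure were SLC2A1, ANGPTL4, RRAGD and ALDOC, and also DDX41, MITF, NEAT1 and TSC22D4. DDX41, an RNA helicase, stood at 50.3 CPM in ENC 2′ and 137, 93.5 and 117 CPM in ENC 1′, 3′ and 4′. NEAT1, a nuclear non-coding RNA of paraspeckles, stood at 151 CPM against 263, 396 and 382 CPM. VIM, the intermediate filament vimentin, was likewise lowest in ENC 2′ at 1080 CPM, against 1726, 2215 and 1832 CPM, and MALAT1, a further nuclear RNA, at 30886 CPM against 39854, 44910 and 54809 CPM.

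On the high side the ratios were smaller. The 15 highest included RRS1, DLX1, SFRP1, ID3, UBE2D1, NOP16, POLR3K, ATG101, HSPH1, HNRNPAB, DTYMK, PHF5A, SNHG9 and IDI1, with log2 ratios from 0.91 down to 0.65, and all 15 were above each of the other 3 subclusters. RRS1, DLX1, UBE2D1 and ATG101 were under 20 CPM in the rest and passed the filter through ENC 2′, so a high ratio was built into their entry. Taking the highest of the other 3 as the reference, 8 of 4411 genes were higher by 1.5-fold or more (0.181%).

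RRS1, a ribosome assembly factor, stood at 29.9 CPM (27.9 to 32.0) in ENC 2′, 14.1 in ENC 1′, 18.1 in ENC 3′ and 18.5 (12.3 to 26.7) in ENC 4′. It was 1.93-fold higher than in the rest (1.72 to 2.17). DLX1, a homeobox factor, stood at 32.1 CPM (30.0 to 34.3) in ENC 2′, 18.7 in ENC 1′, 17.1 in ENC 3′ and 3.30 (1.07 to 7.70) in ENC 4′, and was found in 13.4% of ENC 2′ cells and 0.962% of NEP cells. In the separate day 10 library DLX1 gave 1.18 CPM in subcluster ENC 1 and 1.23 CPM in ENC 2. SFRP1, a secreted WNT antagonist, stood at 78.0 CPM in ENC 2′ and 54.7, 27.9 and 19.8 CPM in ENC 1′, 3′ and 4′. ID3, a BMP-induced inhibitor of differentiation factors, stood at 101 CPM in ENC 2′ and 77.0, 22.5 and 43.5 CPM in the others, with ENC 3′ lowest.

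**Figure D3:**
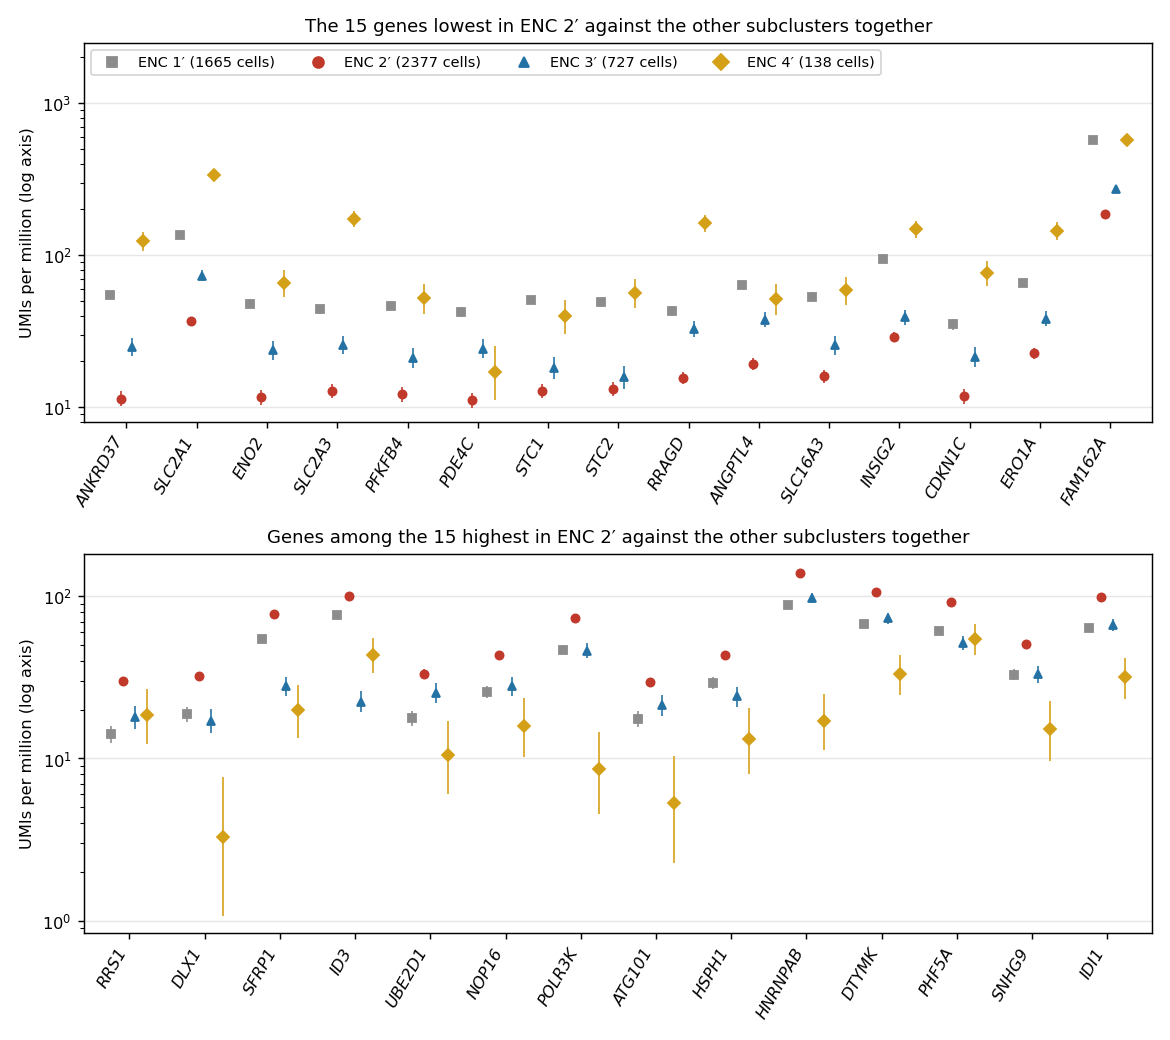
Levels of the 15 genes with the lowest ratio of ENC 2′ over the rest (top) and of the genes named above among the 15 highest (bottom), in CPM on a log axis, for each subcluster with exact Poisson 95% intervals. The red points of ENC 2′ are the lowest of the 4 for all 15 genes above and the highest for every gene below, with wide intervals for the 138 cells of ENC 4′.

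Genes of ribosome assembly and of lipid synthesis had median ratios above that of all genes. Of 20 ribosome biogenesis genes 17 were tested against the rest, and 14 had a ratio above 0 (65.6% of all genes tested did). The median log2 ratio was 0.35 (all genes 0.09). Past 1.5-fold were 2, RRS1 and NOP16, of which RRS1 passed the filter through ENC 2′. NOP16, a nucleolar protein, gave 43.7 CPM in ENC 2′ against 25.8, 27.9 and 15.8 CPM. NPM1 and FBL, nucleolar proteins at 2278 and 282 CPM, had ratios of -0.06 and -0.02, and the list summed to 4735 CPM in ENC 2′ and 4388 in the rest. DDX21, a helicase of ribosomal RNA synthesis outside the list, gave 141 CPM against 91.5, 87.9 and 81.1 CPM.

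Of 20 cholesterol and fatty acid synthesis genes 13 were tested, all 13 had a ratio above 0, against 65.6% of all genes tested, and 2 passed 1.5-fold, IDI1 among them. Their median log2 ratio was 0.38, and the list summed to 1081 CPM in ENC 2′ and 838 in the rest. IDI1, an isoprenoid isomerase, gave 98.8 CPM against 63.5, 66.9 and 31.7 CPM. SQLE, squalene epoxidase, gave 104 CPM against 70.5, 75.7 and 35.0 CPM, just short of 1.5-fold over the rest. INSIG2, which restrains cholesterol synthesis, was among the 15 lowest, at 29.1 CPM against 94.5, 39 and 148 CPM.

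Pigment cell genes were lower in ENC 2′ than in ENC 3′ and took both directions against ENC 1′, where of 3 tested 1 was higher by 1.5-fold or more, PMEL, and 1 was lower, MITF. PMEL (chr12:55954105-55973317, minus strand), a melanosome matrix protein, stood at 94.6 CPM (90.9 to 98.3) in ENC 2′, 45.9 in ENC 1′, 551 in ENC 3′ and 146 in ENC 4′. It had 1 of the 5 highest ratios over ENC 1′ (log2 1.03) and 1 of the 5 lowest over ENC 3′ (-2.53). PMEL was seen in 22.8% of ENC 2′ cells, 13.8% of ENC 1′ cells and 76.8% of ENC 3′ cells, against 7.69% of NEP cells, and the AC025162.1 gene lies within it on the same strand. MLANA, a melanosome protein, gave 5.33 CPM in ENC 2′, 2.69 in ENC 1′, 96.8 in ENC 3′ and 19.8 in ENC 4′. DCT, a melanin enzyme, gave 5.74 CPM in ENC 2′ and 1.63, 52.1 and 40.9 CPM in the others. MITF, the pigment lineage regulator, ran the other way between ENC 2′ and ENC 1′, at 25.3 CPM in ENC 2′ and 45.2, 83.7 and 116 CPM in the others, lowest in ENC 2′.

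Over the 8 melanoblast genes the sum was 181 CPM in ENC 2′, 137 in ENC 1′, 895 in ENC 3′ and 441 in ENC 4′, and the difference from ENC 1′ was about that of PMEL. Against ENC 3′ all 5 tested were lower by 1.5-fold or more, with a median log2 ratio of -2.53 (all genes 0.10). MLANA and DCT were under 20 CPM in ENC 2′ and passed the filter through ENC 3′, so a low ratio was built into their entry. At 5000 UMIs 56.5% of ENC 2′ cells had no UMI of the list, against 58.8% of ENC 1′, 11% of ENC 3′ and 26.1% of ENC 4′ cells. SNAI2, a factor of crest delamination, gave 27.6 CPM in ENC 2′, 17.1 in ENC 1′, 87.9 in ENC 3′ and 28.4 in ENC 4′. S100B, a glial calcium binder also present in pigment cells, gave 172 CPM in ENC 2′, 95.3 in ENC 1′, 359 in ENC 3′ and 121 in ENC 4′. Its intermediate level made its ratio over the rest -0.00, although it was among the 5 highest against ENC 1′. TTYH1, a membrane protein of neural progenitors, ran opposite, at 76.2 CPM in ENC 2′, 114 in ENC 1′ and 23.4 in ENC 3′.

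Against the summed rest no crest or glial gene of the lists passed 1.5-fold, while single subclusters differed. Of 15 neural crest genes 11 were tested against the rest, 0 passed 1.5-fold in either direction and the median log2 ratio was -0.02 (all genes 0.09). Only 4 of these 11 had a ratio above 0, against 65.6% of all genes tested. Of 18 Schwann cell precursor and glial genes 11 were tested, again with 0 past 1.5-fold and a median of 0.04, and 6 had a ratio above 0. Against ENC 3′, of 10 tested genes of each list 2 crest genes were lower, ETS1 and SNAI2, and 4 glial genes were higher and 2 lower. MOXD1, SCRG1 and TTYH1 were among the higher and S100B was among the lower. SCRG1 gave 78.6 CPM in ENC 2′ and 32.3 CPM in ENC 3′. Against ENC 4′, SOX10 and TFAP2A, a crest specifier, were higher and NGFR, PAX3 and ETS1 lower among 10 tested crest genes, and of 11 glial genes 2 were higher and 1 lower. Against ENC 1′, SNAI2 and S100B alone passed, both on the high side. SNAI2 was under 20 CPM in ENC 1′ and passed the filter through ENC 2′, so a high ratio was built into its entry. EDNRB, the endothelin receptor needed for enteric colonisation, gave 46.1 CPM in ENC 2′, 38.0 in ENC 1′, 102 in ENC 3′ and 109 in ENC 4′. Of 15 enteric progenitor genes 4 were tested, with 0 past 1.5-fold. The 13 HOX genes of the list were at or near 0, summing to 1.01 CPM.

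In the signalling lists single members stood apart. Of 16 BMP and ID genes 2 were tested, and ID3 alone passed 1.5-fold, while NOG, a BMP antagonist under the filter, gave 1.83 CPM in ENC 2′ against 10.6, 2.93 and 35.6 CPM. Of 21 WNT genes 6 were tested, and SFRP1 alone passed. Of 16 FGF and ERK genes 3 were tested and 0 passed, and of 18 Notch genes 2 were tested and 0 passed. Of 13 insulin-like growth factor genes 6 were tested and IGFBP2 alone passed, on the low side. The immediate early genes, known to respond to stress and handling, summed to 122 CPM in ENC 2′, 183 in ENC 1′, 118 in ENC 3′ and 382 in ENC 4′. FOS gave 3.17 CPM in ENC 2′ against 16.9, 6.59 and 49.5 CPM, and the part of dissociation in the differences above was not tested.

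ENC 2′ had the lowest share of cells called G1. By the deposited phase calls 28.6% of ENC 2′ cells were in G1, 45.3% (43.3 to 47.3) in S and 26.1% in G2M, against 32.8%, 45.1% and 22.1% in ENC 1′, 48.7%, 34.9% and 16.4% in ENC 3′ and 86.2%, 3.62% and 10.1% in ENC 4′. Scored again at 5000 UMIs per cell, ENC 2′ gave 24.9%, 37.1% and 38.0%, again with the lowest G1 share of the 4. Of 42 S phase genes 33 were tested against the rest, 30 had a ratio above 0, against 65.6% of all genes tested, and 0 passed 1.5-fold (median 0.21). Of 54 G2 and M phase genes 41 were tested and 1 passed, BIRC5, the mitotic protein survivin, at 172 CPM in ENC 2′ against 119, 99.0 and 78.5 CPM.

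Since phases differed, the ratios were taken again within each phase. Among G1 cells 360 of 3876 genes were higher in ENC 2′ by 1.5-fold or more (9.29%) and 178 were lower (4.59%). Among S cells 4 of 4159 were higher (0.0962%) and 66 lower (1.59%), and among G2M cells 23 of 4297 were higher (0.535%) and 106 lower (2.47%). All 15 of the lowest genes stayed past 1.5-fold in each phase. They were picked by their ratios over these same cells, from -2.04 to -1.38, so this is no separate check. SLC2A1 had log2 ratios of -1.89 in G1, -1.49 in S and -1.62 in G2M. Of the 15 highest genes all 15 passed in G1, 10 in G2M and only RRS1 and UBE2D1 in S, although all 15 kept a ratio above 0. The highest genes were picked in the same way and started nearer the 1.5-fold limit, at log2 ratios from 0.65 to 0.91. RRS1 and UBE2D1 had also passed the filter through ENC 2′. ID3 had log2 ratios of 1.30 in G1, 0.41 in S and 0.67 in G2M. Of the 114 genes lower over all phases, 105 were also called in G1, 64 in S and 81 in G2M, and of the 29 higher, 24, 3 and 15. ENC 4′ gave 119 of the 1019 G1 cells of the rest, and without it the G1 count of higher genes was 296.

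By list sums, glycolysis and hypoxia had log2 ratios of -0.54 in G1, -0.59 in S and -0.62 in G2M, nearly equal in the 3 phases. Cholesterol and fatty acid synthesis had 0.68, 0.24 and 0.17, and the S phase list itself had 0.58 among cells called G1 and 0.01 among cells called S. The phases thus do not hold cycling equal, and the part of residual cycling in the G1 values was not tested. Within ENC 2′ the per-cell median of the glycolysis and hypoxia list was 72 UMIs in G1, 56 in S and 55 in G2M, and in ENC 1′ it was 135.5, 97 and 104. Across all ENC 2′ cells this list correlated with the S phase list at Pearson -0.35 (Spearman -0.30) and with ribosome biogenesis at -0.15 (Spearman -0.13). These describe cells of 1 library, whose lists share a fixed total of UMIs.

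**Figure D4:**
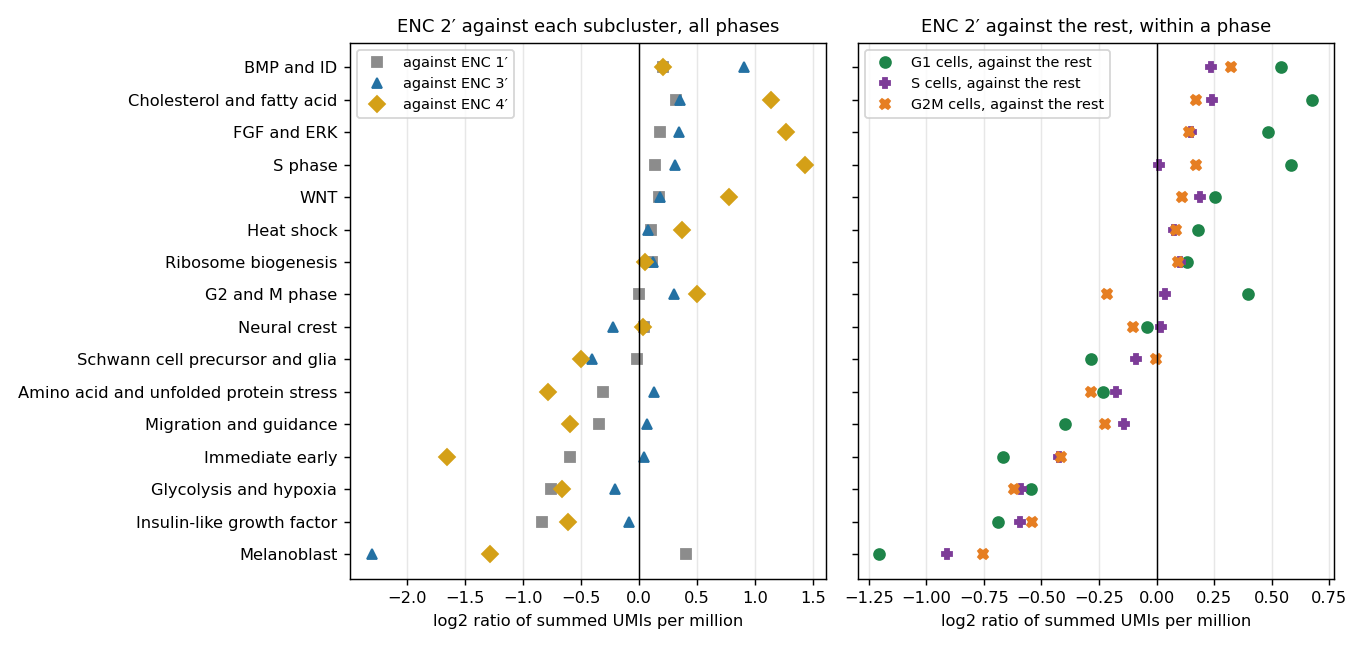
Log2 ratio of the summed CPM of gene lists, ENC 2′ over each other subcluster (left) and over the rest within each deposited phase (right). Points right of the 0 line are higher in ENC 2′. The glycolysis and hypoxia points lie left of 0 in every comparison and phase, and the melanoblast point against ENC 1′ alone lies right of 0 in its row.

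The genes that varied most between ENC 2′ cells were partly the same. At 5000 UMIs the Fano factor, the variance over the mean, was 43.4 for MALAT1, 9.49 for the histone gene HIST1H4C, 7.37 for GAPDH, 3.96 for ENO1 and 3.82 for LDHA, with a median of 1.03 over all genes tested, where counting alone gives 1. TOP2A and UBE2C, of mitosis, had 3.42 and 2.73. Of 4134 genes 36 had a factor of 2 or more. The factor of GAPDH was higher in ENC 1′ (10.9), where its level was also higher, and those of ENO1 and LDHA were lower there (2.80 and 2.89). The factor rises with the level of a gene, so these values do not compare variation at equal level.

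ENC 2′ cells were recognisable from their own counts only in part. With each cell assigned to the most likely of the 8 annotated day 15 profiles, which include it, 78.2% of ENC 2′ cells went to ENC 2′ (76.5 to 79.9), 13.4% to ENC 1′, 6.14% to ENC 3′ and 2.27% to ENC 4′. None of the ENC 2′ cells went to another cell type, which allows a share of up to 0.126% by the limit of 3 counts. Set against the 4 day 10 subclusters of the separate library, 50.2% of ENC 2′ cells were closest to ENC 2, 37.9% to ENC 1, 11.9% to ENC 3 and 0 to ENC 4. The other day 15 subclusters were not assigned in this way, so these shares are not known to be particular to ENC 2′. The glycolysis and hypoxia list summed to between 11060 and 13027 CPM in the day 10 subclusters, beside 13505 CPM in ENC 2′, but day, culture, medium and library cannot be told apart between the 2 libraries.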

How the data were processed

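Droplet-based 3′ RNA sequencing was performed on 2 libraries of H9-derived enteric neural crest, 1 of day 10 adherent cells and 1 of day 15 crestospheres. The authors deposited raw UMI counts per gene and cell for 33694 genes, with cell tables of cell type, subcluster, phase and the percent of mitochondrial and ribosomal UMIs. The submitters' processing notes name Cell Ranger, Seurat 4.0.4 and GRCh38, while the study's methods name kallisto and bustools. One label calls the libraries single-nucleus and the methods single-cell, and the annotation is not given in the sources used here. Per the methods, cells were filtered on genes, UMIs and mitochondrial percent, and subclusters came from Seurat with cell cycle scores, depth and both percents regressed out.

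The members and gene lists were chosen with earlier results of these data known. Counts were summed over each subcluster and scaled to CPM, and genes with a mean of at least 20 CPM over the 2 classes entered a comparison. A gene was called past 1.5-fold on log2(CPM + 1). The 4 subclusters hold from 1516022 to 26838034 UMIs, at medians of 10290 to 11193 UMIs per cell. Poisson, Clopper-Pearson and conditional binomial ratio intervals are exact, at 95%. With 1 library per day no test was run. The call rule and the ratio intervals were tried on simulated sums with known folds and Poisson noise alone. Variation between cells or repeats was not simulated, so this says nothing about error beyond counting. Named genes are those of the lists, the 15 largest and 15 smallest ratios against the rest, the 5 of each against each subcluster, the 10 most extreme against the highest or lowest of the others and the 10 largest Fano factors. Mitochondrially encoded and ribosomal protein genes were not ranked, and a few genes that the rules name are not reported here. No doublet caller was run. The methods state demultiplexing by hashtag antibodies, which can remove doublets between repeats, but not whether doublets were dropped. Phases were scored again with scanpy 1.11.5 on Python 3.11.15, and TMM factors came from edgeR 4.0.16. The alternatives were other filters, pseudocount, scaling, weighting, depth, phase and fold, with the removal of ENC 4′ added after the data were seen. Gene positions are from GENCODE 29.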

Additional observations from a re-analysis of the deposited data

Results flagged for a closer look

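Cells that the authors' limits removed at day 15 carry no subcluster, and they were used in no comparison above. Of 984 such cells, 361 (36.7%, interval 33.7 to 39.8) were assigned by their counts to the ENC 2′ profile, the best match among the 8 annotated day 15 profiles. Their median was 19918 UMIs and 3811 genes per cell, and 352 of the 361 were at or over the limit of 3500 genes. The glycolysis and hypoxia list summed to 11798 CPM in them and to 22188 CPM in the removed cells closest to another ENC subcluster. ANKRD37 gave 9.72 CPM against 73.4, SLC2A1 29 against 147, ID3 145 against 37.7 and SOX10 130 against 83.8. Profile and levels come from the same counts, so these values describe the assignment. Doublets among these cells were not tested for.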

How the results depend on the processing

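No paired analysis was possible because each day has 1 library and the cells are not assigned to repeats. The count of genes higher in ENC 2′ than in the rest, 29, became 82 with a filter of 5 CPM, 5 with 100 CPM, 19 with CPM + 5, 290 with equal weight for the 3 other subclusters, 51 after thinning, 360 among G1 cells, 4 among S cells and 0 at 2-fold. The count lower, 114, became 260 and 24 with those filters, 187 with equal weight, 178 among G1 cells, 66 among S cells and 37 at 2-fold. Lower genes outnumbered higher ones at first, and the order turned with equal weight and among G1 cells. TMM scaling gave 20 and 135. Leaving ENC 4′ out of the rest, an alternative chosen after seeing the data, gave 24 and 101, and 296 and 156 among G1 cells. The SOX10 log2 ratio of 0.35 became 0.54 with equal weight and 0.55, 0.26 and 0.24 among G1, S and G2M cells, or 0.46 among G1 cells without ENC 4′. The ERBB3 ratio of 0.24 became 0.39 with equal weight, 0.41 among G1 cells, 0.044 among G2M cells and 0.37 among G1 cells without ENC 4′. No SOX10 or ERBB3 ratio turned below 0. The ENC 2′ share of 48.4% became 50.0% with removed cells assigned by profile and 44.5% over all typed cells. The S phase share of 45.3% became 40.3% by scanpy at full depth and 37.1% after thinning. The higher count thus depended on the filter, the weighting and the phase, and the cause was not tested. Under equal weight the 138 cells of ENC 4′ count as much as the 1665 of ENC 1′.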

Other observations

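Further lists placed ENC 2′ close to the rest. Nuclear-encoded respiratory chain genes summed to 10490 CPM in ENC 2′ and 9889 CPM in the rest, with 0 of 23 past 1.5-fold, and the 13 mitochondrially encoded genes to 28623 and 26715 CPM. Of those 23 genes 19 had a ratio above 0, as did 65.6% of all genes tested. Ribosomal protein genes had a median log2 ratio of -0.02 over 82 tested, with 0 past 1.5-fold. Of 8 chaperone genes tested, HSPH1 alone passed 1.5-fold, and DNAJA1 gave 150 CPM in ENC 2′ against 102 in the rest. Of 11 amino acid and unfolded protein stress genes tested, DDIT4 alone passed 1.5-fold, on the low side, while HSPA5, the main endoplasmic reticulum chaperone, gave 141 CPM in ENC 2′ and 135, 124 and 187 CPM in ENC 1′, 3′ and 4′.

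SAT1, a polyamine-degrading enzyme, was the member of 8 tested polyamine genes past 1.5-fold, at 77.4 CPM in ENC 2′ and 125, 115 and 318 CPM in the others. Of 4 retinoic acid genes tested 0 passed 1.5-fold, with CRABP2, a retinoic acid carrier, at 624 CPM in ENC 2′ and 635, 403 and 692 CPM in the others. HLA-E, an MHC class I gene, gave 16.8 CPM in ENC 2′ and 21.9, 40.1 and 42.2 CPM in the others. STMN1, a microtubule regulator listed as neuronal but also used by dividing cells, gave 910 CPM in ENC 2′ and 664, 681 and 395 CPM. Of 6 migration and guidance genes tested 2 passed 1.5-fold, CXCR4 and EFNB1, an ephrin, both on the low side. EFNB1 was under 20 CPM in ENC 2′ and passed the filter through the rest, so a low ratio was built into its entry. Of 5 matrix and integrin genes and 5 cadherins tested 0 passed.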
